A study of Mus musculus with 32 samples.

Results

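The costimulatory receptor genes Tnfrsf4, Tnfrsf9, Tnfrsf18, Tnfrsf1b, Tnfrsf25 and Cd27 of the TNF receptor superfamily, and Cd28 and Icos of the CD28 family, were followed in donor T cells of mice given an allogeneic transplant. The 8 genes were selected by symbol from the 16741 genes of the deposited expression table, and all 8 were found there with a value above 0 in each of the 31 RNA libraries. T cells of C57Bl6 donors were transplanted into Balb/c hosts, a major mismatch that causes graft-versus-host disease (GVHD), with or without regulatory T cells (Treg) given on day 0, and CD4, CD8 and Treg cells were sorted from spleen and lymph nodes for bulk RNA sequencing. The groups were CD4, CD8 and Treg cells before transplantation (day 0, 2 libraries each), CD4 and CD8 cells of untreated syngeneic control hosts (3 libraries each), CD4 and CD8 cells of untreated allogeneic hosts with GVHD (4 each), CD4 and CD8 cells of allogeneic hosts treated with Treg (4 each), and Treg recovered from treated hosts (3 libraries). The sample titles place the recovered cells at day 6 and the series description at day 8, and the Treg group is called day 6 here after its titles. No genetic change and no agent other than Treg is named, and the age and sex of the mice are not given in the sources used here. Libraries carry the prefix JL019 or JL027, and most carry a recipient number. Nothing further says how independent the samples of a group are, so that the p-values measure the spread between these libraries, which may in part be technical.

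T cell activation needs a second signal beside the antigen receptor. Cd28, present on resting T cells, binds CD80 and CD86 and signals through phosphoinositide 3-kinase, and Icos is its activation-induced relative that binds ICOS ligand. The TNF receptors recruit TRAF adaptors after binding their trimeric ligands and activate NF-kappaB. Cd27 is carried by naive T cells, whereas Tnfrsf4 (OX40), Tnfrsf9 (CD137) and Tnfrsf18 (GITR) are known as receptors induced by activation and as receptors that Treg carry constitutively. Tnfrsf1b (TNFR2) binds TNF and lymphotoxin alpha and is prominent on Treg. Tnfrsf25 (DR3) holds a death domain and binds TL1A, the product of Tnfsf15.

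In the RefSeq annotation of GRCm38.p6, 5 of the 8 genes lie on chromosome 4. Tnfrsf4 (ENSMUSG00000029075) spans chr4:156013595-156016613, Tnfrsf18 (ENSMUSG00000041954) chr4:156026322-156028894, Tnfrsf25 (ENSMUSG00000024793) chr4:152115528-152120119, Tnfrsf9 (ENSMUSG00000028965) chr4:150920155-150946104 and Tnfrsf1b (ENSMUSG00000028599) chr4:145212368-145246870. Tnfrsf4 and Tnfrsf18 are separated by 9708 bases. Cd28 (ENSMUSG00000026012, chr1:60746388-60773359) and Icos (ENSMUSG00000026009, chr1:60960773-61000322) share a locus on chromosome 1, and Cd27 (ENSMUSG00000030336) lies at chr6:125232620-125237136.

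The sequences directly upstream of Tnfrsf9 and Tnfrsf18 are shown because their windows differ in content, a choice made with the matches known. Both genes also moved together in several comparisons below, though not in all. The windows are the 250 bases before an annotated RefSeq start in GRCm38.p6, read on the plus strand, which is the coding strand of both genes. Capitals mark matches, on either strand, to the NF-kappaB consensus or to the AP-1 motif TGANTCA.
Tnfrsf9, first start, chr4:150919905-150920154: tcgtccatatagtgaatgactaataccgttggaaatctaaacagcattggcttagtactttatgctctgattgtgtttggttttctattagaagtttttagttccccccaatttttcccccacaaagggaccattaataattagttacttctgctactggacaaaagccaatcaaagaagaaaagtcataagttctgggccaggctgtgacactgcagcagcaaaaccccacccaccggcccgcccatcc
Tnfrsf9, second start, chr4:150927749-150927998: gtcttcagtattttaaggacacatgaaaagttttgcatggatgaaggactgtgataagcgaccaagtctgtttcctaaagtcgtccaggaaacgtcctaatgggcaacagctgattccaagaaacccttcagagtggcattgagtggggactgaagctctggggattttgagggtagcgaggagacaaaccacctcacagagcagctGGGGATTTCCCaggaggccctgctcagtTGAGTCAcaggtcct
Tnfrsf18, chr4:156026072-156026321: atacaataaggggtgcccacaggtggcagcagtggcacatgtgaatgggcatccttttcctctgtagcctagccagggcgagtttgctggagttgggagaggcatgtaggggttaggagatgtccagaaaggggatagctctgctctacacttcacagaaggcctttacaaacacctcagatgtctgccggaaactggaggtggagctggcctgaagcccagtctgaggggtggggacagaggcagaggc
The window at the second Tnfrsf9 start held overlapping NF-kappaB matches (GGGGATTTCC and GGGATTTCCC) and 1 AP-1 match (TGAGTCA) ending 8 bases before the start. Among 32851 RefSeq windows of the same length, 3.90% held an NF-kappaB match and 6.75% an AP-1 match. These shares are per window, whereas 8 windows of the members were searched. No other upstream window of the members that was searched held either motif. The expression values are totals per gene and do not separate the starts.

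The library labels were first checked against marker genes. Values throughout are normalised counts, that is read counts per gene scaled by the authors for the size of each library. Cd8a was between 14160 and 61114 in the CD8 libraries and at most 114 in the CD4 and Treg libraries, with 1 exception. The library labelled CD4 syngeneic JL019-2 had 1659 for Cd4 against 14576 and 16526 in the other CD4 syngeneic libraries, and 1956 for Cd8a. In the same library the summed level of 8 myeloid markers reached 3618120 against 79939 and 88294, and that of 6 erythroid markers 463705 against 4370 and 20185. For the changes tested against CD4 syngeneic cells, values without this library are also given. It also enters the estimate of spread per gene that all comparisons share. Comparisons without CD4 syngeneic cells leave it out only where the fit held just the groups compared. In the libraries labelled Treg day 0, Foxp3, the lineage factor of Treg, was 198 and 442, below the 978 and 1145 of CD4 day 0 cells. The summed level of 8 Treg markers was nevertheless 49257 and 49511 in these libraries against 8308 and 9014 in CD4 day 0, and 44528 to 56952 in Treg day 6. Foxp3 was 265 to 293 in Treg day 6, above the 127 to 178 of CD4 cells of the same treated hosts and below the 337 to 579 of CD4 allogeneic cells. The list of Treg markers was added after the files were read, so that its sum is no independent check of the labels. Nor does the sum show how many of the 8 markers were higher. The list also holds Il2ra and Itgae, which other activated T cells can express. Library means, averaged over all genes, ran from 1227 to 2385 normalised counts, so that scaling did not bring the libraries to a common mean. The number of reads behind each library is not known from the normalised values, and no interval for counting error is given.

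The 8 genes fell into different patterns across the 10 groups. Tnfrsf4, Tnfrsf9, Tnfrsf18, Tnfrsf1b and Icos were highest in Treg recovered after transplantation. Tnfrsf25 was highest in CD4 cells of day 0, Cd27 in CD8 cells of syngeneic hosts and Cd28 in CD4 cells of treated hosts. The ratio of the highest to the lowest group mean was 1432 for Tnfrsf4, 70.9 for Tnfrsf9, 27.1 for Tnfrsf18, 26.3 for Icos, 10.8 for Tnfrsf1b, 7.29 for Tnfrsf25, 3.24 for Cd27 and 2.87 for Cd28. Groups accounted for 98.5% of the variance of log2 values of Tnfrsf4 and for 75.5% of that of Tnfrsf1b, the highest and lowest shares among the 8. In bulk RNA, fewer cells carrying a transcript and less transcript per cell cannot be told apart.

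**Figure D1:**
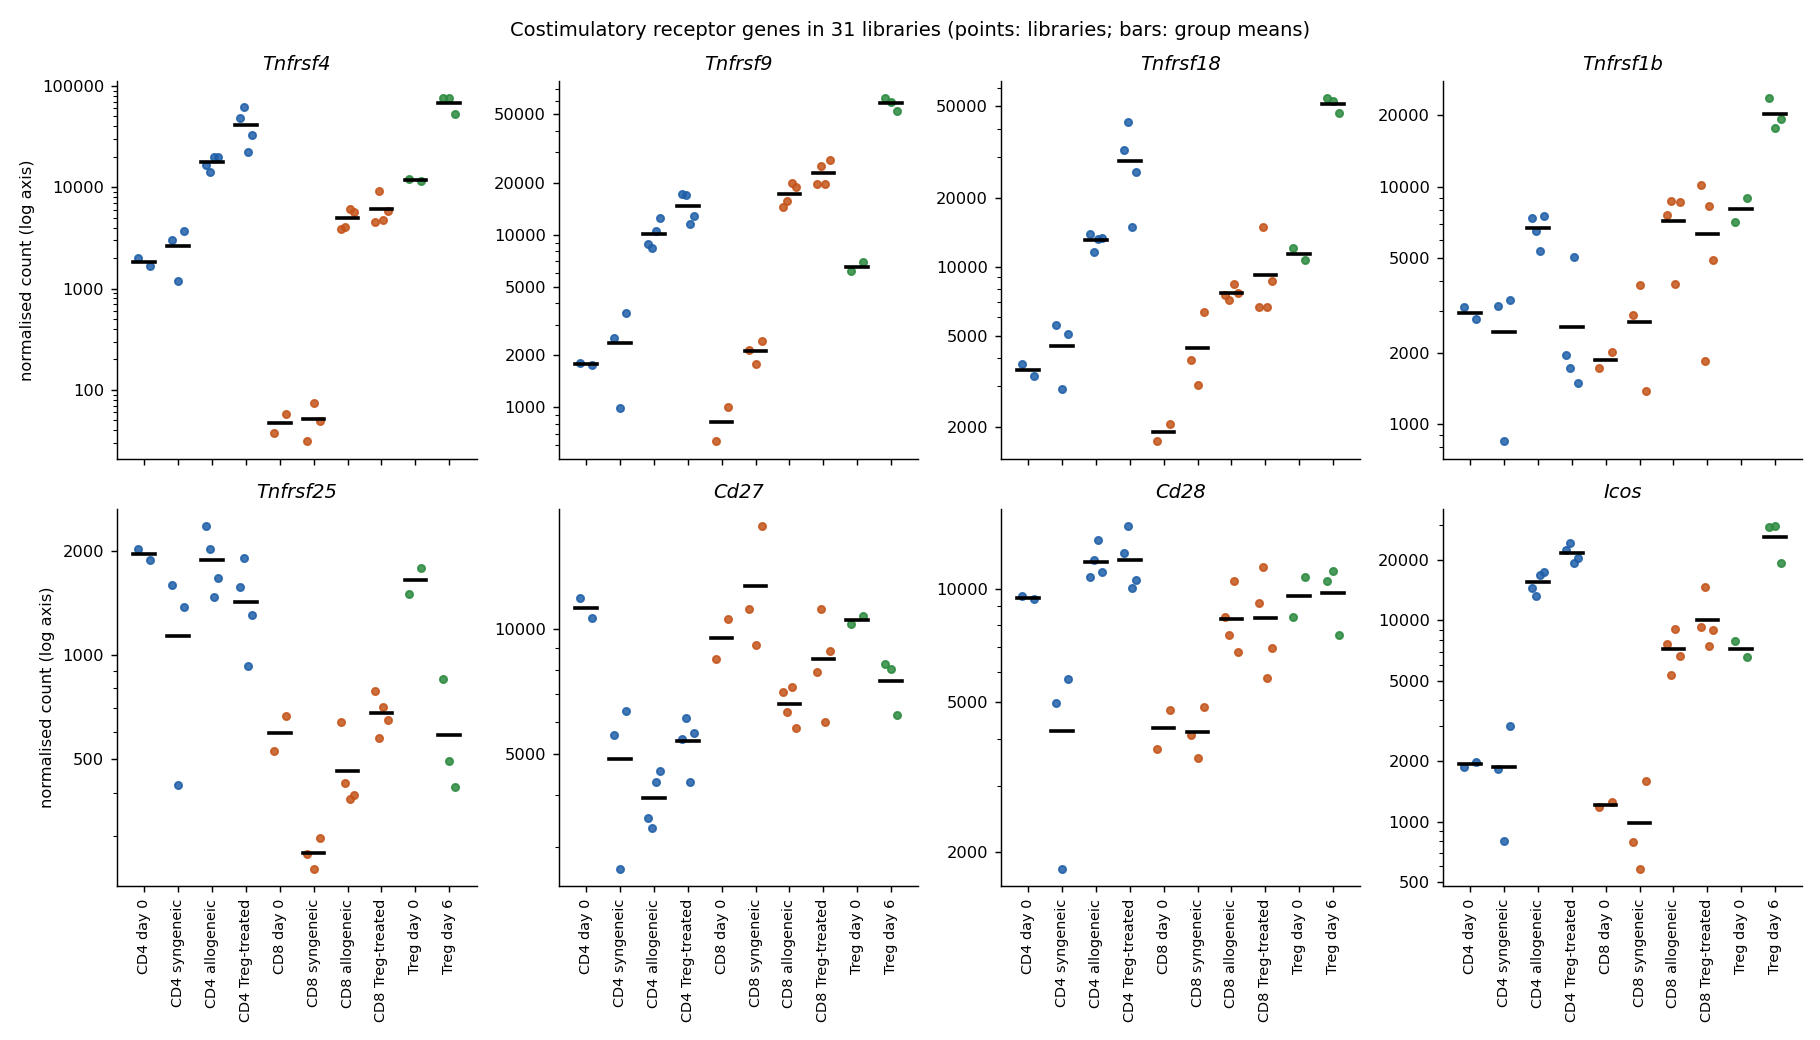
Normalised counts (log axis) of the 8 receptor genes in each library, by cell type and arm; points are libraries and bars are group means. Tnfrsf4 spans from 31.1 to 75679.5 over the 31 libraries, whereas Cd28 spans from 1801 to 14689, with the lowest point in CD4 syngeneic JL019-2.

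The first comparison asked how donor T cells in an allogeneic host differed from those in a syngeneic host. In CD4 cells 6 of the 8 genes were higher in allogeneic hosts and none was lower, by limma with Benjamini-Hochberg adjustment over all genes at a threshold of 0.05. Of all genes, 14.6% were called in this comparison and 6.69% were higher. In CD8 cells 6 were higher and 1, Cd27, was lower, where 21.1% of all genes were called, 10.4% as higher and 10.7% as lower. Values of allogeneic and syngeneic libraries were fully separate for 6 of the 8 genes in CD4 cells, against 23.2% of all genes, and for 8 of 8 in CD8 cells, against 30.3%. The median log2 change of the 8 genes was 1.67 in CD4 and 1.23 in CD8, against -0.00 and 0.02 over all genes. The CD4 counts and the CD4 median include CD4 syngeneic JL019-2. Without it Tnfrsf4, Tnfrsf9, Tnfrsf18, Cd28 and Icos stayed called, with changes of 2.38, 1.74, 1.29, 1.13 and 2.72. Tnfrsf1b (1.03), Tnfrsf25 (0.32) and Cd27 (-0.62) were then not called, and 5.41% of all genes were higher. Changes are given on the scale of log2(value + 1) with their standard error (SE).

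Tnfrsf4, whose product sustains survival of activated T cells, had the largest response of the 8 in CD8 cells. It was 31.1, 74.5 and 49.8 in CD8 libraries of syngeneic hosts and 3885, 4072, 6099 and 5661 in those of allogeneic hosts, a 95.1-fold difference of the means (log2 change 6.60, SE 0.35, limma adjusted p = 1.45e-13). In CD4 cells it was 3009.6, 1201 and 3718 in syngeneic hosts and 16532, 14254, 19789 and 19776 in allogeneic hosts (6.65-fold, log2 change 2.87, SE 0.35, limma adjusted p = 1.19e-06). The ranges did not overlap in either lineage. The CD8 change exceeded the CD4 change by 3.73 on the log2 scale (SE 0.50, limma interaction adjusted p = 2.17e-05), the only 1 of the 8 differences called, where 4.65% of all genes were called and 2.69% as higher in this direction. The CD4 change was 2.38 (adjusted p = 1.57e-05) and the difference 4.22 (adjusted p = 7.63e-07) without CD4 syngeneic JL019-2.

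Tnfrsf9, an inducible receptor known for its role in CD8 T cell expansion, rose in both lineages. It was 2156, 1770.4 and 2430.5 in CD8 cells of syngeneic hosts and 14533, 15734, 19821 and 18872 in those of allogeneic hosts (8.14-fold, log2 change 3.02, SE 0.28, limma adjusted p = 3.53e-09). In CD4 cells it was 2526, 984 and 3527 against 8862, 8364, 10530.3 and 12557 (4.30-fold, log2 change 2.27, SE 0.28, limma adjusted p = 1.19e-06). The groups were separate in both lineages, and the CD4 change was 1.74 (adjusted p = 3.19e-06) without CD4 syngeneic JL019-2. The difference between the CD8 and the CD4 change was 0.75 (limma adjusted p = 0.350), and 1.29 (adjusted p = 0.00968) without CD4 syngeneic JL019-2, so that this library decided the call.

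Icos, the inducible member of the CD28 family, rose in CD4 and CD8 cells. In CD4 cells it was 1817, 800.4 and 3001 in syngeneic hosts and 14499, 13248, 16753 and 17431 in allogeneic hosts (8.27-fold, log2 change 3.23, SE 0.32, limma adjusted p = 5.34e-08). In CD8 cells it was 794, 579 and 1582 against 7677, 5365, 9085 and 6622 (7.30-fold, log2 change 2.97, SE 0.32, limma adjusted p = 7.58e-08). The difference between these changes was -0.26 with a 95% interval from -1.20 to 0.67. The CD4 change of Icos was 2.72 (adjusted p = 2.73e-07) without CD4 syngeneic JL019-2, and the difference, again not called, was 0.25 (adjusted p = 0.838). Cd28 changed less: it was 1.66 higher on the log2 scale in CD4 cells (SE 0.28, limma adjusted p = 0.000131) and 0.99 higher in CD8 cells (SE 0.28, limma adjusted p = 0.0122). The CD4 value was 1.13 (adjusted p = 0.00150) without CD4 syngeneic JL019-2, in which Cd28 was 1801 against 4993 and 5762 in the other CD4 syngeneic libraries. The CD8 call was lost without CD8 syngeneic JL019-2 (adjusted p = 0.0526).

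Tnfrsf18 and Tnfrsf1b were also called higher in both lineages, with less margin. Tnfrsf18 was 5564, 2922 and 5079.8 in CD4 cells of syngeneic hosts and 11545.5 to 13864.5 in those of allogeneic hosts (2.88-fold, log2 change 1.57, SE 0.29, limma adjusted p = 0.000356), and 1.29 higher (adjusted p = 0.00570) without CD4 syngeneic JL019-2. In CD8 cells it was 3925, 3050.4 and 6324 against 7156 to 8363 (1.73-fold, log2 change 0.86, limma adjusted p = 0.0371). This CD8 call was kept in 1 of the 7 fits that left out a library of these groups and was lost with library medians centred (0.0886), with an adjusted p of up to 0.179 without CD8 syngeneic JL019-2. Tnfrsf1b was 3164, 848 and 3328 in CD4 cells of syngeneic hosts and 7375, 6511, 5370.2 and 7528 in those of allogeneic hosts (log2 change 1.68, SE 0.49, limma adjusted p = 0.0193). The change was 1.03 without CD4 syngeneic JL019-2 and was not called (adjusted p = 0.228), nor was it with only these groups in the fit (adjusted p = 0.0672). In CD8 cells Tnfrsf1b was 1.47 higher (SE 0.49, limma adjusted p = 0.0327), a call kept in 2 of the 7 fits with a library left out and with an adjusted p of 0.232 without CD8 syngeneic JL027.

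Cd27 went the other way. It was 11199.5, 9177 and 17742 in CD8 cells of syngeneic hosts and 7086, 6318, 7255 and 5786 in those of allogeneic hosts, a mean ratio of 0.520 (log2 change -0.89, SE 0.25, limma adjusted p = 0.0115). The call was lost without CD8 syngeneic JL027, the library with the highest value (adjusted p = 0.133). In CD4 cells Cd27 was 2644 to 6379 in syngeneic and 3323 to 4569.9 in allogeneic hosts, and the groups overlapped (log2 change -0.22, limma adjusted p = 0.641). Without CD4 syngeneic JL019-2, which had the lowest value, the change of Cd27 was -0.62 and was not called either (adjusted p = 0.105). Tnfrsf25 passed in neither lineage (log2 change 0.92 in CD4, limma adjusted p = 0.0589, and 0.76 in CD8, adjusted p = 0.104). Its CD4 change was 0.32 without CD4 syngeneic JL019-2 (adjusted p = 0.609). It was called as higher without CD4 syngeneic JL019-1 (1.28, adjusted p = 0.0120) or JL027 (1.17, adjusted p = 0.0291), with library medians centred (1.03, adjusted p = 0.0273) and with the library mean as a covariate (0.89, adjusted p = 0.0477). With the replicate label as a block Tnfrsf25 was called as higher in CD4 (1.15, adjusted p = 0.0171) and in CD8 cells (0.98, adjusted p = 0.0378).

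Myeloid marker sums moved with these comparisons as well. They ran from 79939 to 3618120 in CD4 syngeneic and from 5325 to 10903 in CD4 allogeneic libraries, and from 38326 to 61571 in CD8 syngeneic and from 5389 to 9641 in CD8 allogeneic libraries, with all 8 markers above 0 in each group. In CD8 cells the sum of 3 NK cell markers ran from 5156 to 5695 in syngeneic and from 1502 to 1887 in allogeneic libraries, and that of 6 B cell markers from 3266 to 4045 and from 1132 to 1251. The sum of 4 dendritic cell markers went the other way, from 633 to 955 in CD8 syngeneic and from 1373 to 2948 in CD8 allogeneic libraries. So did the sum of 8 Treg markers, with 722 to 1095 in CD8 syngeneic and 7441 to 10112 in CD8 allogeneic libraries and, in CD4 cells, 1888 to 6988 and 10026 to 10502. Foxp3 itself was at most 3.52 in CD8 syngeneic libraries and 103 to 453 in CD8 allogeneic ones. B cell sums in CD4 cells were 249 and 253 in syngeneic libraries, and 1230 in JL019-2, against 925 to 1367 in allogeneic ones. The part of these markers in the results was not tested. Within the libraries of prefix JL019, Tnfrsf4 was 3.01 higher in CD4 and 6.34 higher in CD8 cells of allogeneic hosts, and within JL027 it was 2.41 and 6.85 higher. For Icos the values were 3.52 and 3.24 within JL019 and 2.51 and 2.29 within JL027. Smaller changes differed more between the prefixes. In CD8 cells Tnfrsf18 was 1.08 higher within JL019 and 0.34 within JL027, and Tnfrsf1b 1.29 and 2.08. In CD4 cells Tnfrsf1b was 2.08 and 0.93 higher and Tnfrsf25 1.41 and 0.19. The CD4 values of JL019 include CD4 syngeneic JL019-2, and JL027 has 1 syngeneic library per lineage.

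**Figure D2:**
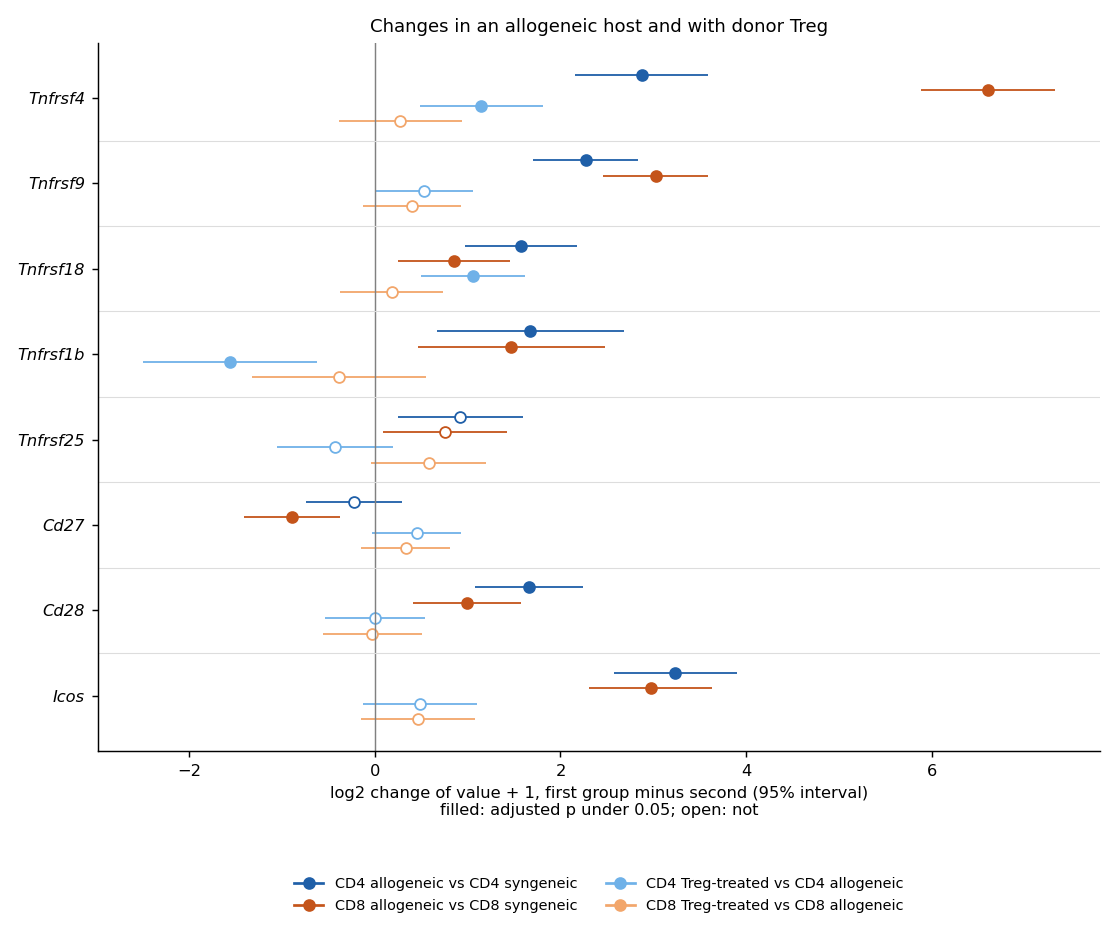
Log2 changes of the 8 genes with 95% intervals for CD4 and CD8 cells, allogeneic against syngeneic hosts and Treg-treated against allogeneic hosts; filled points passed an adjusted p of 0.05. The CD8 change of Tnfrsf4 in allogeneic hosts, 6.60, lies to the right of all others, and none of the CD8 changes with Treg is filled.

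Cells before transplantation gave a second reference. Against day 0, CD4 cells of allogeneic hosts had higher Tnfrsf4, Tnfrsf9, Tnfrsf18 and Icos and lower Cd27 (24.0% of all genes were called, 14.4% as higher and 9.61% as lower). Cd27 was 11895 and 10667 at day 0 and 3323 to 4569.9 in allogeneic hosts, a mean ratio of 0.348 (log2 change -1.53, SE 0.29, limma adjusted p = 0.000183). Tnfrsf1b was not called in CD4 cells (1.17, adjusted p = 0.139), and it was with only these groups in the fit (adjusted p = 7.06e-05) and with the library mean as a covariate (2.22, adjusted p = 1.82e-05). In CD8 cells, 6 of the 8 were higher than at day 0 (30.4% of all genes called, 16.3% as higher), with ratios of the means of 103.9 for Tnfrsf4, 21.1 for Tnfrsf9, 5.93 for Icos, 4.05 for Tnfrsf18, 3.86 for Tnfrsf1b and 1.95 for Cd28. The calls of Tnfrsf1b and Cd28 were lost without CD8 day 0 JL019, where 1 library is left at day 0 and is assumed to vary like the other groups (adjusted p = 0.106 and 0.234), that of Cd28 also without CD8 allogeneic JL027-1 (adjusted p = 0.0627) and with quantile normalisation (adjusted p = 0.181). Cd27 was not called in CD8 cells, and with quantile normalisation it was called as lower (-1.04, adjusted p = 0.00149). Summed erythroid markers were 29059 to 33121 in CD8 day 0 and 547 to 14749 in CD8 allogeneic libraries, and summed myeloid markers 1124 to 1927 in CD4 day 0 and 5325 to 10903 in CD4 allogeneic ones. Treg marker sums were 3220 to 4283 in CD8 day 0 and 8308 to 9014 in CD4 day 0, below the allogeneic levels given above. Dendritic sums were 712 to 862 in CD8 day 0 and 1373 to 2948 in CD8 allogeneic libraries, and in CD4 cells 302 to 426 and 974 to 1346. Their part in these changes was not tested.

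The syngeneic hosts differed from day 0 in fewer of these genes. In CD8 cells Tnfrsf9 rose from 632 and 1000.3 to between 1770.4 and 2430.5 (log2 change 1.40, SE 0.33, limma adjusted p = 0.00378) and Tnfrsf18 from 1726 and 2059.9 to between 3050.4 and 6324 (1.17, adjusted p = 0.0183), while Tnfrsf25 fell from 527 and 665 to between 240.2 and 295 (-1.15, adjusted p = 0.0341). Of all genes 24.2% were called in this comparison, 13.0% as higher and 11.3% as lower. None of these calls held in every fit with 1 library left out: without CD8 day 0 JL019, the adjusted p was 0.129 for Tnfrsf9, 0.184 for Tnfrsf18 and 0.124 for Tnfrsf25. Tnfrsf18 was also not called without CD8 syngeneic JL027 (adjusted p = 0.111), and Tnfrsf25 was called in none of the 5 such fits. With the library mean as a covariate, neither Tnfrsf18 (0.54, adjusted p = 0.284) nor Tnfrsf25 (-0.89, adjusted p = 0.176) was called, and Tnfrsf1b was (2.08, adjusted p = 0.000706). Tnfrsf4 in CD8 cells was 37.4 and 57.5 at day 0, within the range of the syngeneic libraries (log2 change 0.07, 95% interval -0.79 to 0.93). In CD4 cells 2 of the 8, Cd27 and Cd28, were lower in syngeneic hosts than at day 0 (13.0% of all genes called, 3.13% as lower), by log2 changes of -1.31 (limma adjusted p = 0.00357) and -1.35 (adjusted p = 0.00756). Without CD4 syngeneic JL019-2 the change of Cd27 was -0.92 (adjusted p = 0.0343) and that of Cd28 was -0.82 (adjusted p = 0.0657). Without CD4 day 0 JL019 neither was called (adjusted p = 0.0637 and 0.0749), and without CD4 day 0 JL027 Cd28 was not (adjusted p = 0.0693). With only these groups in the fit neither was called (adjusted p = 0.260 and 0.315). Tnfrsf25 was not called (-0.999, adjusted p = 0.0919). It was called as lower without CD4 syngeneic JL019-1 (-1.35, adjusted p = 0.0223) or JL027 (-1.25, adjusted p = 0.0423), with library medians centred (-1.16, adjusted p = 0.0442) and with quantile normalisation (-1.19, adjusted p = 0.0279), and its change was -0.40 without CD4 syngeneic JL019-2 (adjusted p = 0.579). Summed myeloid markers went from at most 1927 in CD4 day 0, where Cd14 was at 0, to the syngeneic levels given above. In CD8 cells myeloid sums were 5509 to 5925 at day 0 and 38326 to 61571 in syngeneic hosts, NK cell sums 1289 to 1552 and 5156 to 5695, and erythroid sums 29059 to 33121 and 3138 to 10830. B cell sums in CD8 cells were 1869 to 2580 and 3266 to 4045. In CD4 cells erythroid sums were 490 to 1161 and 4370 to 463705, and dendritic sums 302 to 426 and 730 to 28448. The highest of each was in CD4 syngeneic JL019-2. Treg marker sums were lower in syngeneic hosts than at day 0 in both lineages, at the levels given above. The part of these markers in the changes from day 0 was not tested.

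The next comparison asked what infusion of donor Treg changed in the other donor cells. In CD8 cells none of the 8 genes was called by limma, none had an unadjusted p below 0.05, and 0.0657% of all genes were called. Tnfrsf4 was 4556, 9128, 4807 and 5890.5 in CD8 cells of treated hosts against 3885 to 6099 in untreated ones (log2 change 0.28, 95% interval -0.39 to 0.94). Tnfrsf9 was 19594, 25129, 19715 and 27026 against 14533 to 19821 (0.40, interval -0.12 to 0.93), and Icos was 9258, 14636, 7492 and 8969 against 5365 to 9085 (0.47, interval -0.15 to 1.08). All 3 groups of values overlapped. The upper bounds of these intervals were 0.93 or more, so that an increase of that size is not excluded by these libraries.

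In CD4 cells 2 of the 8 genes were higher and 1 was lower, in a comparison where 22.2% of all genes were called, 10.7% as higher and 11.5% as lower. This comparison and the one with syngeneic hosts share the allogeneic libraries. Tnfrsf4 was 48769, 62436, 22196 and 32943 in treated hosts against 14254 to 19789 in untreated ones (2.36-fold, log2 change 1.15, SE 0.32, limma adjusted p = 0.0181). Tnfrsf18 was 32226, 42842, 14936 and 25899 against 11545.5 to 13864.5 (2.23-fold, log2 change 1.06, SE 0.27, limma adjusted p = 0.0141). Tnfrsf1b fell, with 1963, 1730.0, 5087 and 1492 against 5370.2 to 7528 (ratio 0.383, log2 change -1.56, SE 0.45, limma adjusted p = 0.0204). The groups were separate for all 3 genes, but recipient JL027-1 lay next to the untreated hosts in each, and the other 3 recipients stood farther away.

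Icos was 22341, 24324, 19304 and 20506 in CD4 cells of treated hosts and 13248 to 17431 in untreated ones. These ranges did not overlap, which held for 22.2% of all genes, but the change of 0.48 was not called (SE 0.30, limma adjusted p = 0.247). With only these groups in the fit the same change was called (adjusted p = 0.0460). Tnfrsf9 was 11521 to 17124 against 8364 to 12557 (0.53, adjusted p = 0.132). Cd28 was 10069.6 to 14689 against 10751 to 13449.5, a log2 change of 0.01 with a 95% interval from -0.53 to 0.54. Cd27 (0.45, adjusted p = 0.158) and Tnfrsf25 (-0.43, adjusted p = 0.323) were not called either.

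These 3 calls depended on single libraries and, under some settings, on library scale. None of the 3 was called without treated JL019-1 (adjusted p = 0.0664 for Tnfrsf4, 0.0543 for Tnfrsf18 and 0.0648 for Tnfrsf1b) or without treated JL019-2 (0.0825, 0.0643 and 0.0717). The changes themselves were 1.04, 0.97 and -1.49 in the first of these fits and 0.92, 0.84 and -1.43 in the second. Without treated JL027-1 they were 1.42, 1.34 and -1.95, and all 3 were called (adjusted p = 0.00236, 0.000919 and 0.00257). Tnfrsf1b was also not called without treated JL027-2 (0.0724) or allogeneic JL019-1 (0.0547), and neither Tnfrsf4 (0.0576) nor Tnfrsf1b (0.0521) without allogeneic JL019-2. Library means were 1608 in treated JL027-1, 1817 to 2118 in the other 3 treated libraries and 1504 to 1669 in the 4 untreated ones. With the library mean as a covariate none of the 3 was called. The change of Tnfrsf4 was then 1.02 (adjusted p = 0.0915) and that of Tnfrsf18 was 0.74 (0.0874), whereas that of Tnfrsf1b was -0.70 (0.162) instead of -1.56. With library medians centred all 3 were called, at 1.35 (adjusted p = 0.0136), 1.26 (0.0126) and -1.36 (0.0204). With quantile normalisation Tnfrsf4 was not called (0.79, adjusted p = 0.0518), and Tnfrsf18 (0.68, 0.0172) and Tnfrsf1b (-1.53, 0.0201) were. Cd4 itself was 9108, 8722 and 9369.5 in the 3 libraries of high mean, 17587 in JL027-1 and 16706 to 21480 in untreated hosts. Myeloid marker sums were 23628 to 86492 in treated and 5325 to 10903 in untreated CD4 libraries, and erythroid sums 5448 to 62447 against 423 to 10708, with no marker of either list at 0 throughout a group. The Treg marker sum was 6612 to 10122 against 10026 to 10502. What part these differences have in the change of the 3 genes was not tested. Within prefix JL019 the changes were 1.85 for Tnfrsf4, 1.55 for Tnfrsf18 and -1.91 for Tnfrsf1b, and within JL027 they were 0.45, 0.56 and -1.21.

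**Figure D3:**
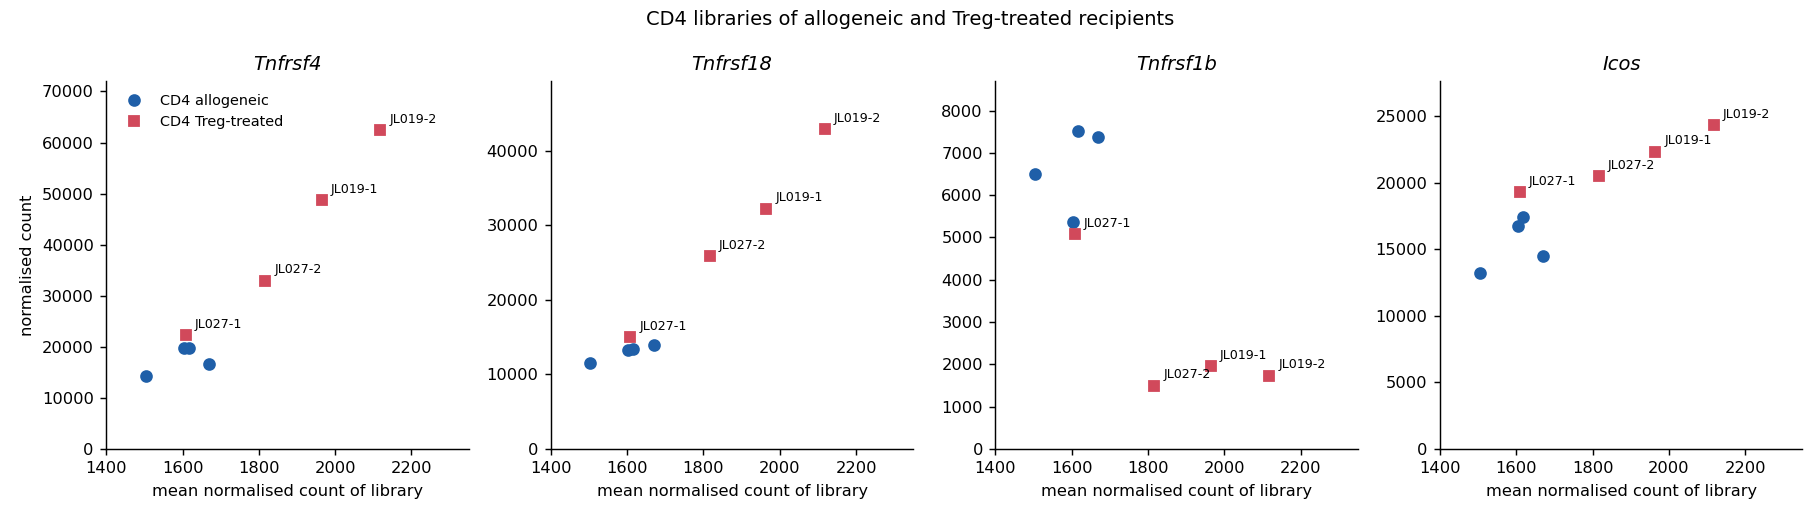
Normalised counts of Tnfrsf4, Tnfrsf18, Tnfrsf1b and Icos in CD4 libraries of allogeneic (circles) and Treg-treated (squares) recipients, plotted against the mean normalised count of each library over all genes. Treated recipient JL027-1, with a mean of 1608, lies beside the untreated libraries in Tnfrsf4, Tnfrsf18 and Tnfrsf1b, and the other 3 treated libraries lie apart at means of 1817 to 2118.

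No difference between the lineages in the effect of Treg was called for any of the 8 genes by the limma interaction term, and 2 had an unadjusted p below 0.05 (0.00597% of all genes were called). Cells of treated hosts were also set against the syngeneic libraries used above. In CD4 cells 5 of the 8 were higher (16.7% of all genes called, 8.23% as higher): Tnfrsf4 by 4.02, Icos by 3.72, Tnfrsf9 by 2.80, Tnfrsf18 by 2.63 and Cd28 by 1.66 on the log2 scale. Without CD4 syngeneic JL019-2 these 5 stayed called, with changes of 3.53, 3.20, 2.27, 2.35 and 1.14. The call of Cd28 was lost with only these groups in the fit (adjusted p = 0.0643). Tnfrsf1b was not called in treated CD4 cells against syngeneic ones (0.12, limma adjusted p = 0.900), and without CD4 syngeneic JL019-2 it was called neither there (-0.53, adjusted p = 0.459) nor in allogeneic cells. In CD8 cells 6 were higher (18.2% of all genes called, 9.56% as higher), with changes of 6.88 for Tnfrsf4, 3.44 for Icos, 3.43 for Tnfrsf9, 1.34 for Tnfrsf25, 1.04 for Tnfrsf18 and 0.97 for Cd28. The calls of Tnfrsf18 and Cd28 were each kept in 4 of 7 fits with a library left out, and their adjusted p was 0.101 and 0.0757 without CD8 syngeneic JL019-2. With only these groups in the fit it was 0.103 and 0.0587. Tnfrsf1b was called in CD8 cells without treated JL019-2 (1.59, adjusted p = 0.0131) and with the library mean as a covariate (1.46, adjusted p = 0.000305). Marker sums moved here too: in CD8 cells of treated hosts they were 10754 to 29827 for myeloid, 1180 to 1479 for NK cell, 1300 to 2062 for B cell, 1203 to 2589 for dendritic and 5731 to 10246 for Treg markers, beside the syngeneic levels given above. Treg marker sums in CD4 cells of treated hosts were 6612 to 10122. Their part in these changes was not tested.

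Treg were compared with CD4 cells before transfer, with themselves after transfer and with the other cells of treated hosts. Before transfer 4 of the 8 genes were higher in the libraries labelled Treg than in CD4 cells, where 3.89% of all genes were called and 2.54% were higher. Tnfrsf4 was 12021 and 11619.7 in Treg against 1995 and 1666 in CD4 cells (6.46-fold, log2 change 2.70, SE 0.46, limma adjusted p = 0.000497). Tnfrsf9 was 6163 and 6895 against 1796 and 1747 (3.69-fold, log2 change 1.88, adjusted p = 0.00184). Icos was 7881 and 6576 against 1874 and 1977 (3.75-fold, adjusted p = 0.00715) and Tnfrsf18 was 12046 and 10656 against 3775 and 3322 (3.20-fold, adjusted p = 0.00887). Leaving out 1 of 2 libraries leaves a group of 1, whose spread the fit takes from the other groups. In such fits Tnfrsf4 and Tnfrsf9 stayed called, Tnfrsf18 was called in none of the 4 (adjusted p = 0.0566 to 0.102), and Icos was lost without CD4 day 0 JL019 (0.0813), CD4 day 0 JL027 (0.0573) or Treg day 0 JL019 (0.0957). Tnfrsf1b was 7105 and 9024 against 3126 and 2779, a 2.73-fold difference that was not called (log2 change 1.44, SE 0.64, limma adjusted p = 0.279). With only these groups in the fit it was called (1.44, adjusted p = 0.00105), as it was with the library mean as a covariate (1.28, adjusted p = 0.0322). Cd27 and Cd28 had ratios of 0.932 and 1.01. Foxp3 was lower in these Treg libraries than in CD4 day 0 cells, as given above. B cell marker sums were 1068 to 1233 in Treg and 509 to 684 in CD4 cells, and myeloid sums 2423 to 3231 and 1124 to 1927. NK cell sums were 246 to 342 and 511 to 564, and erythroid sums 117 to 451 and 490 to 1161. The part of these markers in the day 0 differences was not tested.

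After transfer the same 4 genes were higher than before it, in a comparison that shares the Treg day 0 libraries. Tnfrsf9 was 61897, 59219 and 52380.2 in Treg day 6 against 6163 and 6895 before (8.86-fold, log2 change 3.14, SE 0.33, limma adjusted p = 1.09e-07). Tnfrsf4 was 75679.5, 75188 and 53032 (5.75-fold, log2 change 2.50, SE 0.42, adjusted p = 9.61e-05) and Tnfrsf18 was 54349, 52667 and 46705.5 (4.51-fold, log2 change 2.17, SE 0.35, adjusted p = 5.99e-05). Icos was 29119.6, 29483 and 19223 (3.59-fold, log2 change 1.82, SE 0.39, adjusted p = 0.00148). These 4 genes stayed called without any 1 library. Tnfrsf25, in contrast, was 849.6, 493 and 414 against 1499 and 1781 (ratio 0.357, log2 change -1.55, SE 0.39, limma adjusted p = 0.00710), with an adjusted p of 0.0875 without Treg day 0 JL027. In all, 5 of the 8 were called, where 13.3% of all genes were, 8.43% as higher and 4.89% as lower. Tnfrsf1b was 23642, 17740.4 and 19334 against 7105 and 9024 (2.51-fold), without overlap, and was not called (log2 change 1.33, adjusted p = 0.153). It was called with only these groups in the fit (adjusted p = 0.000503) and with the library mean as a covariate (2.46, adjusted p = 1.88e-05). Cd27 was not called either. With only these groups in the fit Cd27 was called as lower (-0.50, adjusted p = 0.0425), as it was with quantile normalisation (-0.86, adjusted p = 0.0187). In this comparison of 3 with 2 libraries, 50.9% of all genes had no overlap. Dendritic marker sums were 343 to 516 before and 1309 to 1799 after transfer, and erythroid sums 117 to 451 and 1644 to 50088. Their part in these changes was not tested.

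Within treated hosts Treg differed from CD4 cells in 4 of the 8 genes, where 30.0% of all genes were called, 13.9% as higher and 16.1% as lower. Tnfrsf1b, at 17740.4 to 23642 in Treg and 1492 to 5087 in CD4 cells, was 7.88-fold higher (log2 change 3.16, SE 0.49, limma adjusted p = 4.55e-05), and Tnfrsf9 was 3.96-fold higher (log2 change 2.00, SE 0.28, adjusted p = 8.96e-06). Both stayed called without any 1 library. Tnfrsf25 was lower in Treg (ratio 0.412, log2 change -1.30, adjusted p = 0.00445). Tnfrsf18 was 1.77-fold higher (adjusted p = 0.0196), a call lost without treated CD4 JL027-1 (0.0680), Treg JL019-1 (0.0696) or Treg JL019-2 (0.0566), with library medians centred (0.117) and with only these groups in the fit (0.0537). Tnfrsf4 overlapped between the groups (1.63-fold, adjusted p = 0.0856), and it passed without treated CD4 JL019-2 (0.0442), with quantile normalisation (0.00933) or with the trend on gene length removed (0.0177). Cd27 was not called, and it passed as higher in Treg under the last 2 of these settings (0.73, adjusted p = 0.0111, and 0.70, adjusted p = 0.0282). Icos was 19223 to 29483 in Treg and 19304 to 24324 in CD4 cells (log2 change 0.24, 95% interval -0.42 to 0.91). In the recipients JL019-1 and JL019-2, whose CD4 and Treg cells can be matched by label, the ratio of Treg to CD4 was 12.0 and 10.3 for Tnfrsf1b, 3.61 and 3.51 for Tnfrsf9, 1.55 and 1.20 for Tnfrsf4 and 1.30 and 1.21 for Icos.

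Against CD8 cells of treated hosts, Treg were higher in 5 of the 8 genes, where 36.2% of all genes were called and 17.6% were higher. The ratios were 11.2 for Tnfrsf4, 5.56 for Tnfrsf18, 3.20 for Tnfrsf1b, 2.57 for Icos and 2.53 for Tnfrsf9. All 5 stayed called in each fit with a library left out. With the library mean as a covariate the change of Tnfrsf1b was 0.72 (adjusted p = 0.0962) instead of 1.93. Myeloid marker sums were 1729 to 6897 in Treg day 6, 23628 to 86492 in CD4 and 10754 to 29827 in CD8 cells of treated hosts, and their part in the differences was not tested.

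**Figure D4:**
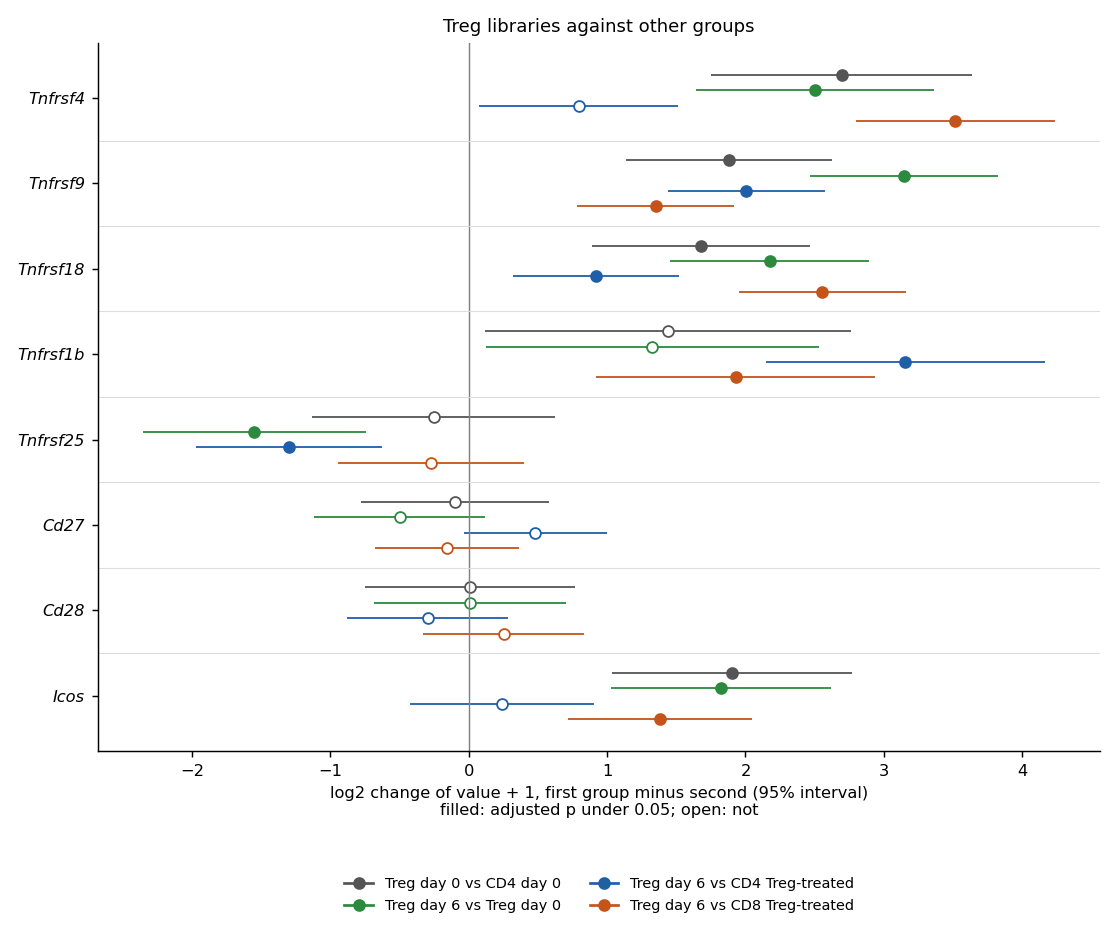
Log2 changes of the 8 genes with 95% intervals for Treg before transfer against CD4 cells, for Treg after against before transfer, and for Treg against CD4 and CD8 cells of treated hosts; filled points passed an adjusted p of 0.05. Tnfrsf9 is filled in all 4 comparisons, at 1.88, 3.14, 2.00 and 1.35, whereas Cd27 and Cd28 are filled in none.

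Tnfrsf4 and Tnfrsf25 were lower in CD8 than in CD4 cells in each of the 4 arms. The ratio of CD8 to CD4 means of Tnfrsf4 was 0.0259 at day 0, 0.0196 in syngeneic, 0.280 in allogeneic and 0.147 in treated hosts (limma adjusted p = 2.04e-08, 4.40e-11, 0.000462 and 1.28e-06). In the 4 allogeneic recipients the level of Tnfrsf4 in CD4 cells was 4.26, 3.50, 3.24 and 3.49 times that in CD8 cells of the same recipient. Tnfrsf25 had ratios of 0.306, 0.236, 0.245 and 0.477 (limma adjusted p = 0.0181, 0.000510, 5.28e-05 and 0.0295). Its call at day 0 was lost in each of the 4 fits with a library left out (adjusted p = 0.0779 to 0.174), and that in treated hosts in 5 of 8 (up to 0.116 without CD4 treated JL019-2). With only the groups compared in the fit, its calls in syngeneic (adjusted p = 0.147) and treated hosts (adjusted p = 0.0516) were lost. Without CD4 syngeneic JL019-2 the changes in syngeneic hosts were -6.07 for Tnfrsf4 and -2.47 for Tnfrsf25, both called.

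At day 0, in allogeneic and in treated hosts, 2, 3 and 4 of the 8 genes were lower in CD8 cells and none was higher, where 3.32%, 6.15% and 9.61% of all genes were called, and 1.10%, 3.09% and 4.71% were lower. With only the day 0 groups in the fit, Tnfrsf9 (limma adjusted p = 0.00188), Tnfrsf18 (0.00535), Tnfrsf1b (0.0399), Cd28 (0.00117) and Icos (0.0291) were also lower there. With quantile normalisation Tnfrsf9 (0.0179), Tnfrsf18 (0.0240) and Cd28 (0.01965) were, and with the library mean as a covariate Tnfrsf9 was (0.0492). Icos was lower in CD8 cells of allogeneic (ratio 0.464, log2 change -1.13, limma adjusted p = 0.0203) and of treated hosts (0.467, log2 change -1.14, adjusted p = 0.0131). The first of these calls was lost without CD4 allogeneic JL027-1 (0.0540) or JL027-2 (0.0633), CD8 allogeneic JL019-2 (0.0799) or JL027-2 (0.0583), and with library medians centred (0.0570), and the second without CD8 treated JL027-1 (0.0588). Tnfrsf18 was lower in CD8 cells of treated hosts (ratio 0.318, log2 change -1.64, adjusted p = 0.000143). Tnfrsf1b, at 1.23 in treated hosts, was not called (adjusted p = 0.0919). It was called as higher in CD8 cells without CD4 treated JL027-1 (1.62, adjusted p = 0.0158), without CD8 treated JL019-2 (1.73, adjusted p = 0.00597) and with the library mean as a covariate (1.48, adjusted p = 0.000186). Cd27 was higher in CD8 than in CD4 cells of syngeneic hosts, with 9177 to 17742 against 2644 to 6379 (2.61-fold, log2 change 1.43, SE 0.27, adjusted p = 0.000561). There 2 of the 8 were lower and 1 higher in CD8 cells, where 12.0% of all genes were called, 6.98% as lower and 4.98% as higher. Without CD4 syngeneic JL019-2 the change of Cd27 was 1.04 (adjusted p = 0.00671), and Icos, at -1.38, was called as lower in CD8 cells (adjusted p = 0.00444). The call of Cd27 was lost with only these groups in the fit (adjusted p = 0.166). Icos was also called there without CD8 syngeneic JL027 (adjusted p = 0.0229). The lineages differed in markers of other cells as well. NK cell sums were 5156 to 5695 in CD8 and 514 to 1199 in CD4 syngeneic libraries, B cell sums 3266 to 4045 and 249 to 1230, and erythroid sums at day 0 were 29059 to 33121 in CD8 and 490 to 1161 in CD4 cells. Treg marker sums were 3220 to 4283 in CD8 and 8308 to 9014 in CD4 cells at day 0. The part of these markers in the lineage differences was not tested.

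The labels name the recipient of most libraries, so that CD4 and CD8 cells of 1 recipient form pairs. With the recipient as a block the count in allogeneic hosts rose from 3 to 6 of the 8: Tnfrsf9 (log2 change 0.78, adjusted p = 0.0319) and Cd27 (0.76, adjusted p = 0.0185) were higher and Tnfrsf18 (-0.76, adjusted p = 0.0463) was lower in CD8 cells. Without the block their adjusted p was 0.0706, 0.0506 and 0.103. Over all genes the share called rose as well, from 6.15% to 8.42%, with 4.24% higher and 4.19% lower under the block. Tnfrsf9 in CD8 cells was 1.64, 1.88, 1.88 and 1.50 times that in CD4 cells of the same allogeneic recipient, and 1.14, 1.49, 1.71 and 2.11 times that in the 4 treated recipients. Cd27 was higher in CD8 than in CD4 cells in each recipient with both libraries, and with the block it was also called in treated hosts (0.64, adjusted p = 0.0396), where 13.0% of all genes were then called and 6.87% were higher.

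**Figure D5:**
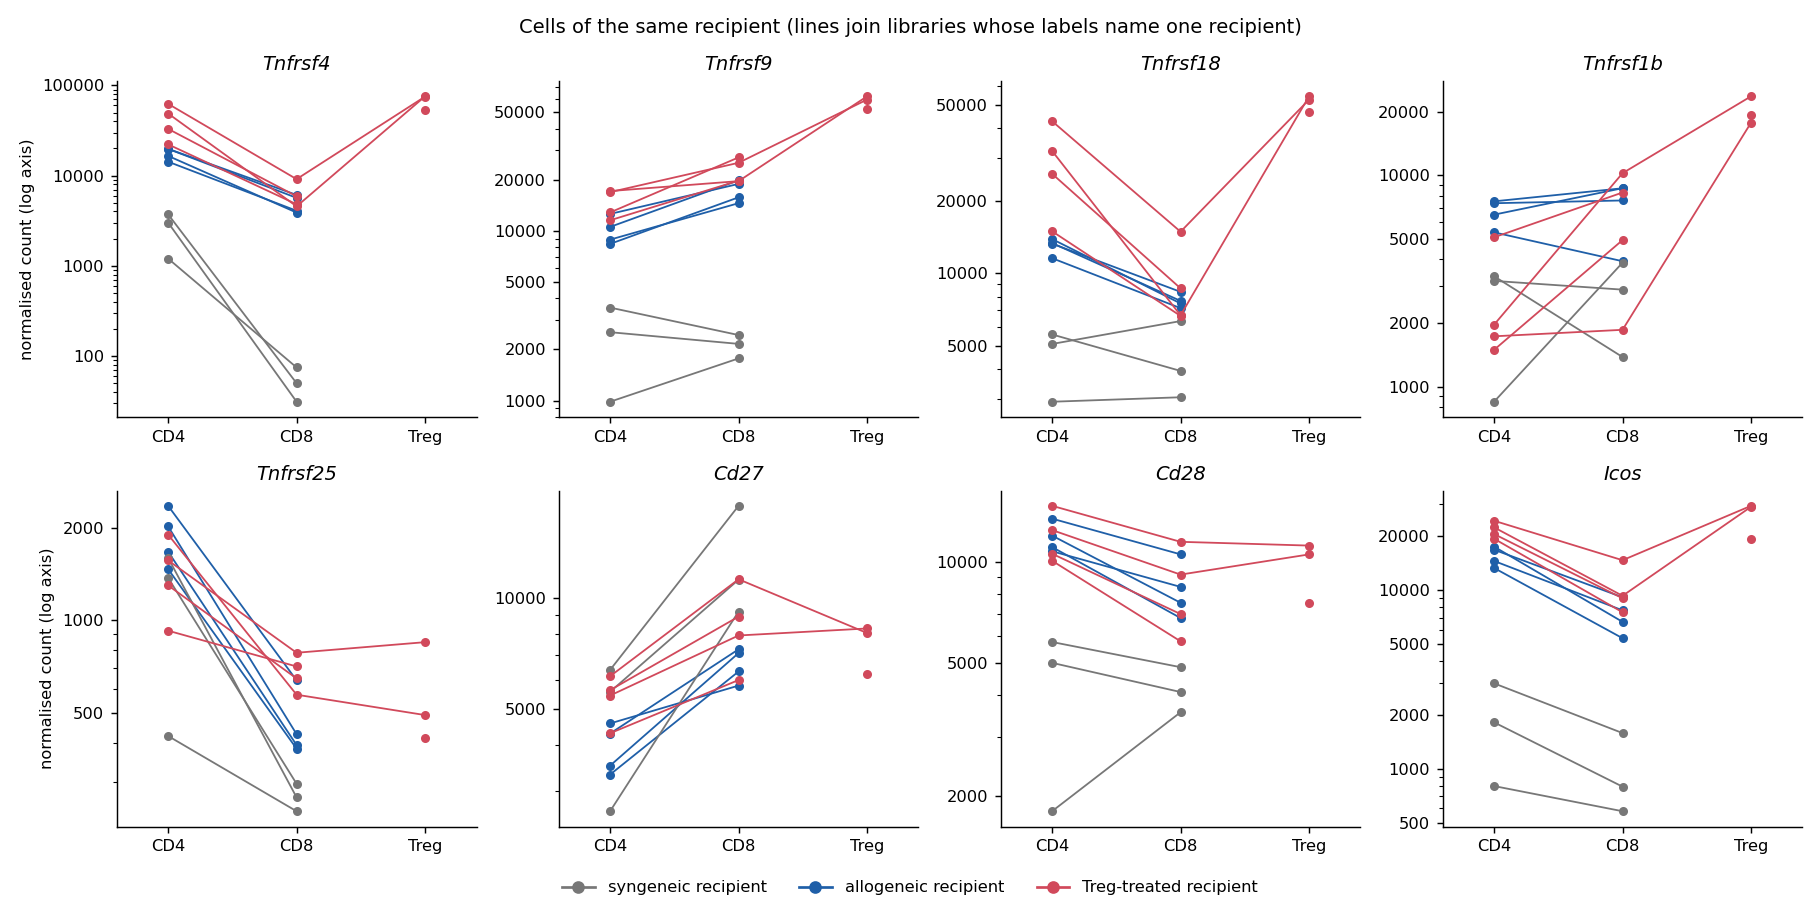
Normalised counts (log axis) of the 8 genes in CD4, CD8 and Treg libraries, with lines joining libraries of the same recipient. Tnfrsf4 is lower and Cd27 higher in CD8 than in CD4 cells of each recipient, and Tnfrsf1b in CD4 cells of treated recipients starts below all Treg points.

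Genes encoding the ligands of the 8 receptors were read in the same libraries, although T cells are only 1 of the sources of these ligands. Of 10 ligand genes, 9 were in the table. In CD4 cells of allogeneic against syngeneic hosts 4 were higher and 2 lower, where 6.69% of all genes were higher and 7.91% lower. The counts were also 4 and 2 without CD4 syngeneic JL019-2, where 5.41% of all genes were higher and 5.45% lower, and 5 of the 6 calls were shared. Cd70, the ligand of Cd27, had a mean of 261 in allogeneic and 38.2 in syngeneic hosts (log2 change 3.07, limma adjusted p = 0.000108), and Tnfsf9, the ligand of Tnfrsf9, of 532 and 203 (1.41, adjusted p = 0.000246). Lta, lymphotoxin alpha, was lower at 195 against 947 (-2.14, adjusted p = 1.12e-05). With that library left out, the changes of Cd70, Tnfsf9 and Lta were 2.28, 1.61 and -2.62 (adjusted p = 0.00177, 0.000147 and 1.64e-07). In CD8 cells 4 were higher and 3 lower, against 10.4% and 10.7% of all genes. Cd70 was 76.9 against 0.702 (5.59, adjusted p = 4.14e-09) and Cd80, which binds Cd28, 69.9 against 0.838 (5.39, adjusted p = 7.65e-09); with levels this near 0 in syngeneic hosts the size of both changes depends on the 1 added before the logarithm. Lta was 87.4 in CD8 cells of allogeneic and 656 in those of syngeneic hosts (-2.85, adjusted p = 4.58e-08). With Treg treatment 2 ligand genes rose and 2 fell in CD4 cells, against 10.7% and 11.5% of all genes. Tnfsf9 was 1091 against 532 (0.99, adjusted p = 0.0115), Lta 433 against 195 (1.09, adjusted p = 0.0142), and Icosl, the ligand of Icos, 423 against 889 (-1.09, adjusted p = 0.0219). With 1 library left out, the number of ligand genes called in this comparison ran from 0 without treated JL019-2 to 6 without treated JL027-1.

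In Treg 4 ligand genes were higher after transfer and 2 lower, against 8.43% and 4.89% of all genes. Lta fell from 1607 to 204 (log2 change -2.97, limma adjusted p = 1.02e-06) and Cd86, which binds Cd28, from 1658 to 469.9 (-1.82, adjusted p = 6.56e-05). Cd70 rose from 5.39 to 60.7 (3.48, adjusted p = 0.000195). Against CD4 cells of treated hosts 5 ligand genes were lower in Treg and none was higher, against 16.1% and 13.9% of all genes. Tnfsf4, the ligand of Tnfrsf4, was 19.2 in Treg and 180.2 in CD4 cells (-3.44, adjusted p = 6.99e-07), Tnfsf9 was 347 against 1091 (-1.61, adjusted p = 5.13e-05) and Cd70 was 60.7 against 638 (-3.27, adjusted p = 5.34e-05).

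Of 3 inhibitory receptors of the CD28 family, Ctla4 and Pdcd1 were higher in allogeneic than in syngeneic hosts in both lineages, against 6.69% of all genes in CD4 and 10.4% in CD8 cells. Btla was called in neither, with changes of 0.45 in CD4 (limma adjusted p = 0.522) and -0.98 in CD8 cells (adjusted p = 0.0782). In CD8 cells Ctla4 was 16034 against 81.0 in syngeneic hosts (log2 change 7.61, limma adjusted p = 7.53e-13) and Pdcd1 (PD-1) 22884 against 156 (7.19, adjusted p = 1.82e-15). In CD4 cells Ctla4 was 4.78 and Pdcd1 2.88 higher on the log2 scale (adjusted p = 1.03e-08 and 1.13e-07), and 4.09 and 2.30 higher without CD4 syngeneic JL019-2 (adjusted p = 5.88e-08 and 1.90e-07). Both were also higher in Treg after than before transfer, Ctla4 by 2.18 (adjusted p = 0.00487) and Pdcd1 by 2.15 (adjusted p = 0.000110). Pdcd1 was 0.90 higher in CD4 cells of treated than of untreated hosts (adjusted p = 0.0258). In 6 of the 8 leave-one-out fits, and with quantile normalisation, none of the 3 inhibitory receptors was called there.

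Of 22 other TNF receptor superfamily genes 17 were in the table. In allogeneic against syngeneic hosts none was higher and 3 were lower in CD4 cells, and 2 were higher and 7 lower in CD8 cells, with medians of -0.57 and -0.78. Of all genes 6.69% were higher and 7.91% lower in CD4 cells, and 10.4% and 10.7% in CD8 cells. Tnfrsf1a, the other TNF receptor, was lower in CD4 cells (-1.54, limma adjusted p = 0.000891) and in CD8 cells (-1.53, adjusted p = 0.000589). When CD4 syngeneic JL019-2 was left out, 2 of the 17 were lower in CD4 cells, and the change of Tnfrsf1a was -1.20 (adjusted p = 0.0143). Tnfrsf8 (CD30) was 89.9 against 4.33 in CD8 cells (4.01, adjusted p = 5.07e-06), and 614 in Treg against 44.0 in CD4 cells of treated hosts (4.01, adjusted p = 1.18e-05).

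Genes downstream of the receptors were read as well. Of 26 genes for TRAF adaptors and NF-kappaB, 5 were higher and none was lower in CD4 cells of allogeneic hosts, among them Nfkb1 (log2 change 1.47, limma adjusted p = 2.92e-07), Traf1 (1.42, adjusted p = 4.53e-05) and the survival gene Bcl2l1 (1.22, adjusted p = 0.00474). Of all genes 6.69% were higher and 7.91% lower in this comparison. When CD4 syngeneic JL019-2 was left out, only Nfkb1 (1.44, adjusted p = 3.03e-06) and Traf1 (1.05, adjusted p = 0.000613) of the 26 were called, and Bcl2l1 was not (0.77, adjusted p = 0.0836). In CD8 cells 3 were higher and 3 lower, shares near the 10.4% and 10.7% of all genes. With Treg treatment 1 of the 26 was higher and 7 were lower in CD4 cells, where 10.7% of all genes were higher and 11.5% lower. Among the lower were Traf6 (-1.49, adjusted p = 0.00939) and Tnfaip3 (-2.36, adjusted p = 0.0190), an inhibitor of NF-kappaB. The number called with Treg treatment ran from 1 to 13 with 1 library left out: it was 1 without treated JL019-1, JL019-2 or JL027-2 or allogeneic JL019-2, and 13 without treated JL027-1. With the library mean as a covariate it was 1. Library means, Cd4 and the myeloid and erythroid sums differ between these groups, as given above, and their part in the ligand and adaptor counts was not tested. In Treg against CD4 cells of treated hosts 12 were higher and 2 lower, against 13.9% and 16.1% of all genes, with a median of 0.72 against 0.14 over all genes. Birc2 and Birc3, ubiquitin ligases bound by TRAF proteins, were 1.81 and 1.30 higher (adjusted p = 9.19e-07 and 2.75e-05), and Nfkb1 was lower (-0.97, adjusted p = 0.000110).

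Of 25 genes for CD28 and ICOS signalling, 6 were higher and 2 lower in CD4 cells and 3 higher and 2 lower in CD8 cells of allogeneic against syngeneic hosts. Of all genes 6.69% were higher and 7.91% lower in CD4 cells, and the CD8 counts were near the 10.4% and 10.7% of all genes. When CD4 syngeneic JL019-2 was left out, 1 gene was higher and 2 were lower in CD4 cells, and 5 of the 6 higher calls were lost. Maf, a transcription factor linked to Icos signalling, was higher in both (log2 change 2.53 and 2.59, limma adjusted p = 7.77e-08 and 1.65e-08), and was the gene that stayed higher in CD4 cells without that library (2.03, adjusted p = 9.74e-08). In CD4 cells of treated against untreated hosts 11 were lower and none was higher, against 11.5% and 10.7% of all genes, with a median of -0.87 against -0.00 over all genes. The lowest p-values belonged to Pik3r1 (-0.74, adjusted p = 0.0141), Vav1 (-1.07, adjusted p = 0.0184) and Pik3r2 (-1.45, adjusted p = 0.0188). With 1 library left out the number called ran from 0 without treated JL027-2 to 16 without treated JL027-1, and it was 1 without treated JL019-1, treated JL019-2 or allogeneic JL019-2. With the library mean as a covariate it was 0. This is the comparison in which library means, Cd4 and myeloid and erythroid markers differed between the groups, and their part in it was not tested.

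The genes whose pattern was most like that of each receptor over the 31 libraries were taken from 9741 genes with a mean of at least 100. Libraries of a group share their arm and cell type, so that Pearson's r here is a description. Tnfrsf4 was most like Ccr8 (r = 0.972), a chemokine receptor known from Treg, then Penk (0.954) and Casp1 (0.948). Icos was most like Sdcbp2 (0.947), Bcl2a1b (0.940) and Calca (0.939), and Tnfrsf1b like Reps1 (0.940), Ppp1r16b (0.932) and C1qtnf6 (0.916). Tnfrsf25 was most like Tbc1d4 (0.895) and Cd40lg (0.869), the ligand that CD4 cells use to help B cells. Cd28 was most like Slamf6 (0.856), Tes (0.832) and Gpr183 (0.830). Tnfrsf9 was most like Mif4gd (0.939), Stam2 (0.938) and Gabpb1 (0.930), and Cd27 like Saraf (0.865), Fam149b (0.783) and Sp100 (0.782). Among the 8 themselves, Tnfrsf4 and Icos were the most alike (0.909), and Cd27 had a negative r with all 7 others, down to -0.457 with Tnfrsf4.

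Some of the most like genes are neighbours on the chromosome. Sdf4 was most like Tnfrsf18 (r = 0.979), ahead of Cldnd1 (0.932) and Gpr107 (0.931). In RefSeq the span of Sdf4 lies directly before Tnfrsf4 and shares 16 bases with it, and its r with Tnfrsf4 was 0.824. Espn lies 211 bases from Tnfrsf25 and followed Cd40lg in likeness to it (0.832). Ctla4 lies between Cd28 and Icos, 135665 bases from the first and 44940 from the second, with r of 0.809 and 0.934. It was not among the 3 genes most like either. Other nearest neighbours had lower r. With Tnfrsf9 it was 0.193 for Park7 and -0.592 for Per3, and with Tnfrsf1b 0.194 for Dhrs3 and 0.769 for Tnfrsf8. For Ttll10 with Tnfrsf18 it was 0.235, for Plekhg5 with Tnfrsf25 0.374 and for Tapbpl with Cd27 0.448. Raph1 had 0.613 with Cd28, and Pard3b 0.160 with Icos. Whether the counting separates reads of Sdf4 and Tnfrsf4 at their shared bases is not given in the sources used here, so that the values of this pair carry that uncertainty.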

How the data were processed

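FastQC 0.11.7, kallisto and DESeq2 were run by the authors on mouse build GRCm38 (mm10), per the submitters' processing notes, which give no order. The signal values the authors deposited are DESeq2-normalised read counts per gene. The authors deposited them beside log2 fold changes, a test score and p-values of their own fit, whose groups the header does not name and which were not used. Libraries were made from full-length cDNA by the SMARTer v4 and Nextera XT kits, per the labels' protocols. The table gave 31 libraries in 10 groups, each assigned from its title; T cell receptor sequencing was not used here. Because the values are not raw counts, no count model was fitted. Values were tested as log2(value + 1) with limma 3.58.1 in R 4.3.3, in a model of 10 group means over all 31 libraries with trend and robust variance, in 20 comparisons, with Benjamini-Hochberg adjustment over 16741 genes and a threshold of 0.05. A mean of at least 1 was required, which all genes met. 1 row without a gene symbol was tested with the rest. The fit was checked on simulated data. Figures were drawn with matplotlib 3.10.9.

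The members, gene lists and tests were chosen with earlier results of these data known, and the list of Treg markers was added after the files were read. Of each list, up to 3 called genes with the lowest p are named per comparison; the 8 members are named throughout, and the 3 genes most like each member by Pearson's r. Libraries of different cell types from the same recipient were paired by the labels: over 15 such pairs the correlation of deviations from group means ran from -0.114 to 0.428, and 9 exceeded 0.1. Where the recipient block changed a call, its value stands beside the result. Alternatives were the filter, the pseudocount, the groups fitted, prefix and replicate label, medians centred, quantile normalisation, library mean, gene length (given for 94.7% of genes) and leaving out each library. Sequences, coordinates and neighbours are from RefSeq, GRCm38.p6, which matched 8 of 8 members by symbol and held upstream windows for 6.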

Additional observations from a re-analysis of the deposited data

Results flagged for a closer look

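Tnfrsf1b in the CD4 library of treated recipient JL027-1 was 5087, against 1492 to 1963 in the other 3 libraries of that group, a gap that is 0.869 of the range of the 4 values and above the 95% critical value of Dixon's test. Of 32 groups of values tested in this way, 1 was flagged, where chance flags about 1 in 20.

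The allogeneic change of Tnfrsf4 differed between lineages: it was larger in CD8 than in CD4 cells by 3.73 on the log2 scale (SE 0.50, limma interaction adjusted p = 2.17e-05). The CD8 level was 31.1 to 74.5 in the 3 syngeneic libraries and 3885 to 6099 in the 4 allogeneic ones.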

How the results depend on the processing

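The 8 genes in 20 comparisons gave 2920 log2 changes under the alternatives: 2756 kept their side of the threshold, of which 96 changed direction without being called in either fit, 102 were no longer called, 62 became called and none of the called changes reversed. Counts of called genes among the 8 moved by over 1.5 times as follows; the cause was not tested except that some fits hold fewer samples. With only the groups compared in the fit, the counts were 0 for CD4 syngeneic against day 0, 7 for CD8 against CD4 at day 0, 1 in syngeneic and 7 in allogeneic hosts. With the replicate label as a block, the count for CD4 syngeneic against day 0 was 0; same-labelled libraries of different recipients share only a number (16 of 57 pairs correlated above 0.1). With the recipient as a replicate block, it was 6 for CD8 against CD4 in allogeneic hosts, and it moved no other count by over 1.5 times. With quantile normalisation it was 5 for CD8 against CD4 at day 0. With the library mean as a covariate it was 0 for CD4 treated against allogeneic and 5 for CD8 against CD4 in allogeneic hosts, and with the trend on gene length removed 5 for the latter. Leaving out 1 library gave ranges of 0 to 3 for CD4 syngeneic against day 0, 0 to 3 for CD4 treated against allogeneic, 2 to 3 for Treg against CD4 at day 0, 1 to 1 for CD8 against CD4 at day 0, 0 to 2 for CD8 syngeneic against day 0 and 1 to 2 for the difference between lineages in the allogeneic change. Calls over the whole table moved too: leaving out 1 library gave 470 to 5633 genes for CD4 treated against allogeneic (3710 with all), 1817 to 4653 for CD4 treated against syngeneic (2789), 942 to 2733 for CD4 syngeneic against day 0 (2181), 2178 to 3794 for CD4 allogeneic against day 0 (4013), 4 to 63 for CD8 treated against allogeneic (11), 1001 to 4869 for CD8 syngeneic against day 0 (4053) and 2795 to 4924 for CD8 allogeneic against day 0 (5097). It gave 1088 to 1704 for Treg day 6 against day 0 (2231), 261 to 302 for Treg against CD4 at day 0 (651) and 3119 to 6377 in treated hosts (5016). For CD8 against CD4 it gave 266 to 340 at day 0 (556), 1264 to 2250 in syngeneic (2001), 661 to 908 in allogeneic (1029) and 1077 to 2990 in treated hosts (1609). Over the other settings the counts ran from 1101 to 3444 for CD4 allogeneic against syngeneic (2445), 570 to 4204 for CD4 treated against allogeneic, 598 to 3713 for CD4 treated against syngeneic, 235 to 3081 for CD4 syngeneic against day 0, 1962 to 6636 for CD4 allogeneic against day 0, 0 to 50 for CD8 treated against allogeneic, 1974 to 4423 for CD8 treated against syngeneic (3045), 1973 to 4158 for CD8 syngeneic and 2591 to 6245 for CD8 allogeneic against day 0. They ran from 1353 to 4482 for Treg day 6 against day 0, 587 to 2081 for Treg against CD4 at day 0 and 3014 to 5986 in treated hosts. For CD8 against CD4 they ran from 526 to 1802 at day 0, 282 to 3137 in syngeneic, 959 to 1802 in allogeneic and 715 to 4250 in treated hosts, and for the difference between lineages in the allogeneic change from 494 to 1512 (779). The printed shares of all genes called move with these counts. A group of 2 left with 1 library is assumed to vary like the other groups. Centring library medians shifted the median change of all genes by -0.22 (Treg against CD4 in treated hosts) to 0.31 (CD4 treated against syngeneic), and by 0.20 for CD4 treated against allogeneic. Groups of 2 to 4 libraries and unknown read depth limit all values.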
